A study of Rattus norvegicus with 14 samples.

Results

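The genes described here are 39 chaperones and stress factors of the endoplasmic reticulum (ER), the cytosol and the mitochondria, followed in the left ventricle of diabetic and control rats. Members were the probe sets whose annotation gives exactly 1 gene symbol equal to a listed name. A probe set is a group of short DNA probes that together report 1 transcript region on the array. By this rule 36 of the 39 genes were measured, through 52 probe sets, out of 14217 named genes and 31042 probe sets tested on the array. For 12 genes more than 1 probe set was found, and the brightest then stood for the gene. Ern1, which encodes the ER stress sensor IRE1, had no probe set under this rule, and Hspa8 and Hsp90aa1 lay on probe sets that carry several symbols, so those 3 genes are not analysed here.

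Both groups were male Wistar rats injected by the tail vein under halothane, control animals with saline and diabetic animals with streptozotocin (STZ) at 60 mg/kg. STZ is a toxin that pancreatic beta cells, the source of insulin, take up. Hearts were perfused with buffered saline and the left ventricle was dissected after 16 weeks, and 7 animals of each group were hybridised, 1 per Affymetrix Rat Genome 230 2.0 array. The labels give no age. One description field of the diabetic samples speaks of saline, against their titles and protocol, and grouping went by the titles. RNA came from whole ventricle tissue, so fewer cells of a type and less RNA per cell cannot be told apart in any difference below.

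Proteins that enter the ER fold there with the help of Hspa5 (BiP), Hsp90b1 (GRP94), the lectin chaperones Calr and Canx, and disulfide isomerases. When unfolded protein accumulates, the sensors IRE1, PERK (Eif2ak3) and ATF6 start the unfolded protein response, in which the factors Xbp1, Atf4 and Atf6 raise chaperone genes and, under lasting stress, Ddit3 (CHOP). In the cytosol a separate programme, driven by Hsf1, raises HSP70, HSP90 and their partners, and the heart is also rich in small heat shock proteins that bind damaged filament proteins.

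The unfolded protein response acts on its targets through short promoter elements, so the elements present in the members' promoters are shown before the values. Promoter sequences came from RefSeq for the rat build GRCr8, from 250 bases before to 50 bases after each gene start, and were found for 31 of the 39 listed genes, 30 of them measured. Both strands were searched for the ER stress response element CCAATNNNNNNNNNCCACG, for the second ER stress response element ATTGGNCCACG and for a heat shock element spelled GAANNTTCNNGAA. The first of these is known to bind ATF6 together with the CCAAT-binding factor NF-Y, and the last is a match to the binding pattern of Hsf1. The ER stress response element stood in 22 of 33469 promoters (0.0657%), the second ER stress response element in 17 (0.0508%) and the heat shock element in 267 (0.798%).

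The ER stress response element was found in 6 members, each printed here on the strand of its gene with 5 bases either side and with the fixed letters of the element, or their reverse complement, in capitals. The windows lie at chr3:38452968-38452996 (plus strand) for Hspa5, at chr7:23012446-23012474 and chr7:23012342-23012370 (minus strand) for Hsp90b1, at chr19:40213130-40213158 (plus) for Calr, at chr10:35158064-35158092 (minus) for Canx, at chr14:84604553-84604581 (plus) for Xbp1 and at chr15:102432529-102432557 (plus) for Dnajc3.
Hspa5: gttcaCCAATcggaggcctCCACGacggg
Hsp90b1, 176 bases before the start: caaacCCAATcgaaaggagCCACGcttcg
Hsp90b1, 72 bases before the start: gagtgCGTGGtgaggcacgATTGGtgggt
Calr: caacgCGTGGtcgaccctgATTGGcccag
Canx: cttgtCCAATcatcacgctCCACGaagaa
Xbp1: acaggCCAATcgcagacggCCACGaccct
Dnajc3: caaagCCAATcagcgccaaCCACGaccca
These 6 genes were all measured, and 0 of them passed the adjusted or an unadjusted p of 0.05 between diabetic and control, with log2 differences between -0.14 and 0.00.

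The second ER stress response element was found in Hyou1, Herpud1 and Dnajb11. With the same use of capitals it is shown with 6 bases either side for Hyou1 and Herpud1, whose values below differ in sign. In Hyou1 it occurs at 2 places (chr8:53602688-53602710 and chr8:53602788-53602810, plus strand). The Herpud1 window lies at chr19:10614815-10614837 (minus strand). The Dnajb11 element begins 10 bases before the gene start and runs past it, and is not printed.
Hyou1, 188 bases before the start: ccgtgaCGTGGgCCAATccgcag
Hyou1, 88 bases before the start: cttctaCGTGGcCCAATggggac
Herpud1: gcgctgATTGGgCCACGttgggc
The log2 differences of these 3 genes ran from -0.37 to 0.47, and 0 of them passed the test (1, Herpud1, at an unadjusted p under 0.05). Heat shock elements were found in 4 measured members (Hspd1, Hspe1, Hsph1 and Dnaja1), again with 0 called (1, Hsph1, at an unadjusted p under 0.05), and 1 example is shown from the stretch that the oppositely directed Hspd1 and Hspe1 share (chr9:64084261-64084285, here on the strand of Hspe1).
Hspe1: gttctaGAAccTTCcgGAAggcccc

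Sdf2l1 is shown at greater length because it was the member that passed the adjusted threshold. The 250 bases before its start (chr11:97376628-97376877, plus strand) hold CCAAT at 4 places and CCACG at 1 place, either as written or as reverse complements, and these are in capitals.
Sdf2l1: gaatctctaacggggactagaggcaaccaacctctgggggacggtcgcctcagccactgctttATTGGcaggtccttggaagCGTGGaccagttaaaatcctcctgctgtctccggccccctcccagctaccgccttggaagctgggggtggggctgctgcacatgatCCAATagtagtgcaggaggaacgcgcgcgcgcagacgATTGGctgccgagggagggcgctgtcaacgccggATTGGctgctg
Neither spelling of the full ER stress response element occurs in this window. CCAAT alone stood in 37.5% of all promoters and CCACG alone in 31.6%, and a match or its lack is a description of the letters only.

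Values below are log2 signals, that is log2 of the scaled array signal plus 50, so that a difference of 1 is a doubling, and differences are diabetic minus control. The offset makes differences of dim genes appear smaller than they are. A gene was called when its limma p value, adjusted by Benjamini-Hochberg over 31042 probe sets, was under 0.05. Over the whole array 354 probe sets were called (1.14%), of which 162 (0.522%) were lower in diabetic hearts, and by gene 245 of 14217 (1.72%). Control probe sets on the arrays (poly-A spike-ins and the 3' to 5' ratio of beta-actin) were used to split the 14 arrays into 3 sets, which the labels do not name. Sets A and B hold 2 control and 2 diabetic arrays each and C holds 3 and 3. The cuts were placed at the largest gaps, so the number of sets follows from the rule. The log2 beta-actin ratio of set C (0.67 to 1.47) reached into that of set A (1.41 to 1.71). Values with set as a block and within sets are given beside the results. Median deposited signal ranged from 14.8 to 85.3 between arrays, and precision is limited by there being 7 arrays a group.

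A single gene of the set, Sdf2l1, passed the test, with a lower value in the diabetic ventricle. Of the 36 measured genes 0 were called higher and 1 lower. By probe set 1 of 52 was called (1.92%). At an unadjusted p under 0.05 there were 6 genes (16.7%, against 11.5% of the 14217), namely Sdf2l1, Herpud1, Ddit3, Manf, Hsph1 and P4hb. With array set as a block, an unadjusted p under 0.05 was reached by 12 genes (33.3%, against 16.1% of all named genes), the added ones being Dnajb9, Dnajb11, Hspa9, Hspb1, Hspb8 and Hspe1. In fits that used all arrays this unadjusted count ran from 4 (replicate number as a block) to 12 (array set as a block). With an offset of 200 it was 11. Of all 31042 probe sets, 2590, 4093 and 3303 had an unadjusted p under 0.05 in these fits, in the same order. In the main fit 2984 did. The groups did not overlap in 1 of the 52 probe sets (1.92%, against 1.2% over the array). With array set as a block 2 of the 36 genes were called, Sdf2l1 and Herpud1, in a fit that called 3.09% of all named genes. By probe set this was 2 of 52 (3.85%, against 2.08% over the array). The shares of members called or not overlapping rest on 1 or 2 genes and are near those over the array. The unadjusted shares, of 6 and 12 genes, were above those over the array and are given as a description, with no test.

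Most members had small differences below 0. The difference was below 0 in 29 of 36 genes (80.6%), compared with 50.4% of all named genes, and the median was -0.12, compared with -0.0019. The count below 0 was 27, 27 and 29 of 36 within array sets A, B and C, and it stayed between 27 and 30 under the scalings tried. Members share tissue, arrays and in part regulators, so this count is a description and carries no test. The spread ran from -1.02 (Sdf2l1) to 0.47 (Herpud1).

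**Figure D1:**
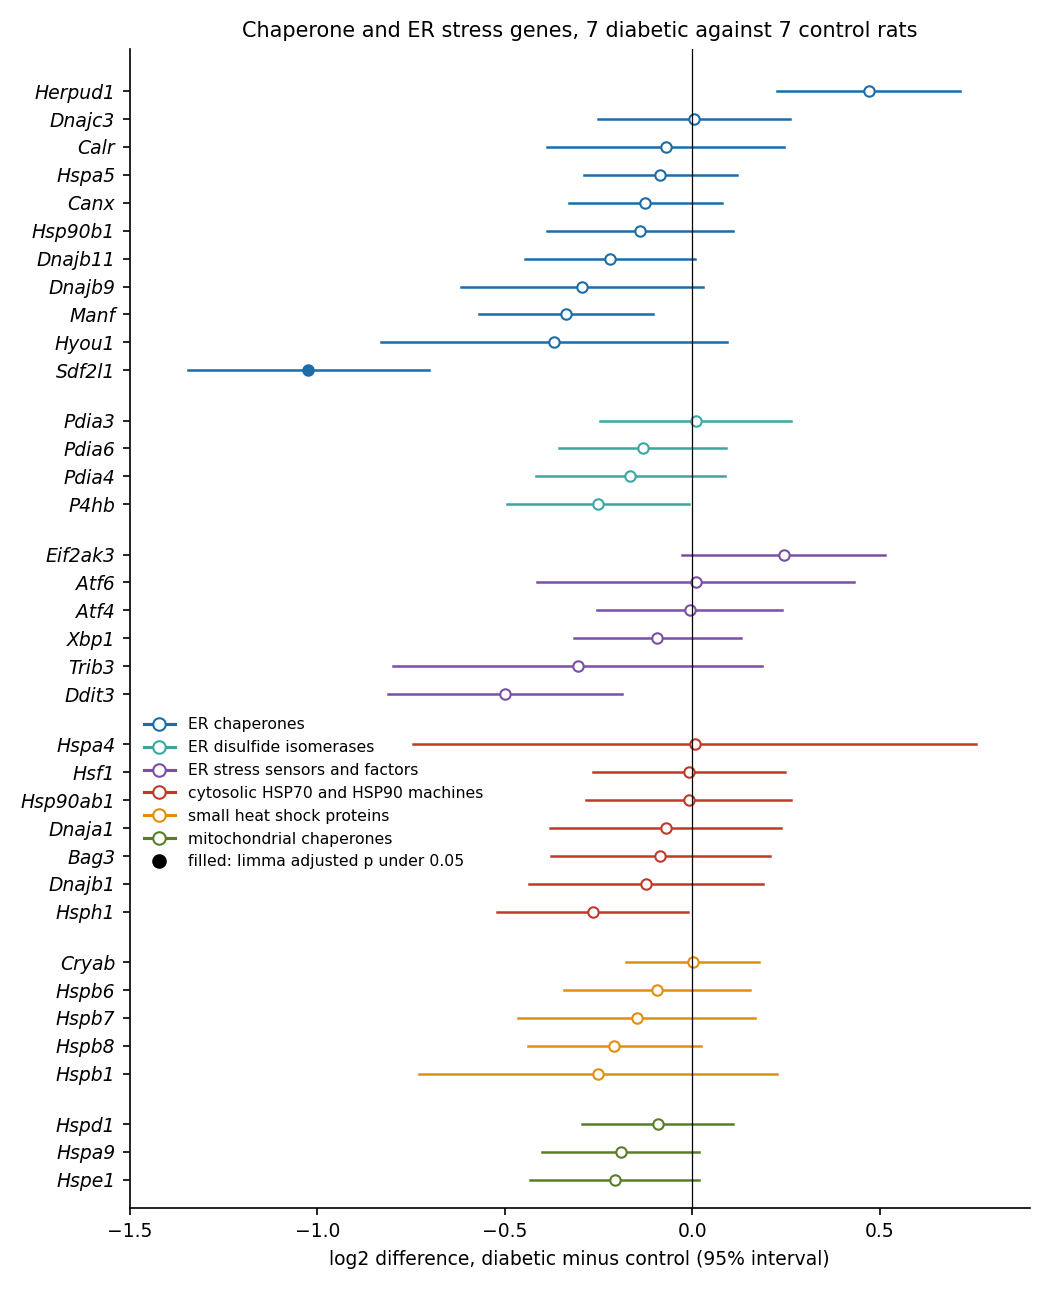
Log2 difference (diabetic minus control) of the 36 measured genes with 95% limma intervals, 7 against 7 rats, grouped and coloured by role. The filled point, Sdf2l1 at -1.02, is the gene that passed the adjusted threshold, and 29 of the 36 points lie left of 0.

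Sdf2l1 encodes a soluble ER protein that works with the Hspa5 co-chaperones and is known as a target of the unfolded protein response. Its log2 signal was 9.31 at the lowest, 9.62 at the median and 9.97 at the highest in the 7 control hearts. In the 7 diabetic hearts these values were 8.27, 8.53 and 9.28. The groups did not overlap, although the highest diabetic heart, replicate 4, came close to the lowest control, replicate 7. The difference was -1.02 ± 0.15 (SE), which is 2.03-fold lower in diabetic (95% interval 1.63 to 2.54, limma adjusted p = 0.00147). It was -0.96, -1.06 and -1.04 within array sets A, B and C, and the adjusted p was 0.00166 with set as a block. Leaving out any of the 14 arrays kept it called (adjusted p 0.000254 to 0.00523). Without the 3 arrays of lowest deposited signal (control 3, control 5 and diabetic 1) the difference was -0.91 (limma adjusted p = 0.0264).

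The central ER chaperones did not pass the test. Hspa5, the ER HSP70, had a log2 signal of 13.03, 13.05 and 13.22 (lowest, median, highest) in control and 12.80, 13.03 and 13.18 in diabetic hearts. The ranges overlapped, with 3 diabetic hearts below all controls. The fold was 0.943 (95% interval 0.819 to 1.09, limma adjusted p = 0.865). Hsp90b1, the ER HSP90, stood at 12.04, 12.15 and 12.44 in control and 11.75, 12.03 and 12.28 in diabetic hearts, also overlapping. Its fold was 0.908 (0.765 to 1.08, limma adjusted p = 0.793). Calr and Canx, the lectin chaperones that hold glycoproteins, had differences of -0.07 ± 0.15 and -0.12 ± 0.10 (SE). For Canx all 7 diabetic hearts lay below the control median while 2 further Canx probe sets gave -0.08 and 0.08.

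Co-chaperones and secreted factors of the ER mostly had lower medians in diabetic hearts, without passing the test. Manf, a secreted ER protein that binds Hspa5, was at 10.85, 10.98 and 11.17 in control and at 10.45, 10.59 and 10.98 in diabetic hearts. Of the 7 diabetic hearts 6 lay below all controls, and replicate 6 was the exception. Its difference was -0.34 ± 0.11 (SE, limma adjusted p = 0.231, and 0.147 with set as a block). Within sets A, B and C the Manf difference was -0.26, -0.25 and -0.44. Hyou1, the ER nucleotide exchange factor GRP170, was at 9.05, 9.43 and 10.45 in control and at 8.69, 9.31 and 9.54 in diabetic hearts. Its 2 probe sets gave different values, -0.37 ± 0.22 for the brighter and 0.02 ± 0.18 (SE) for the other, and neither was called.

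The ER DnaJ proteins bring client proteins to Hspa5. Dnajb9 (ERdj4) was at 10.77, 11.40 and 11.59 in control and at 10.60, 11.02 and 11.40 in diabetic hearts, and its difference was -0.29 ± 0.15 (SE, limma adjusted p = 0.584). Dnajb11 (ERdj3), which binds Sdf2l1, was at 9.75, 9.90 and 10.10 in control and at 9.48, 9.73 and 9.88 in diabetic hearts. All 7 diabetic values of Dnajb11 lay below the control median and 4 below all controls, at a difference of -0.22 ± 0.11 (SE, adjusted p = 0.546). Dnajc3 (P58IPK) was level, at 0.00 ± 0.12.

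Herpud1 went the other way from these genes. It encodes an ER membrane protein that helps to send misfolded proteins to degradation. Its log2 signal was 11.36, 11.53 and 11.87 in control and 11.85, 12.09 and 12.33 in diabetic hearts. Of the diabetic hearts 6 of 7 lay above all controls, and the overlap came from diabetic replicate 4 and control replicate 3. The difference was 0.47 ± 0.11 (SE), a fold of 1.39 (1.17 to 1.64), with a limma adjusted p of 0.0671 that missed the threshold. With set as a block the adjusted p was 0.0438, and within sets A, B and C the difference was 0.66, 0.40 and 0.39. Leaving out single arrays gave adjusted p values from 0.0510 to 0.137.

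**Figure D2:**
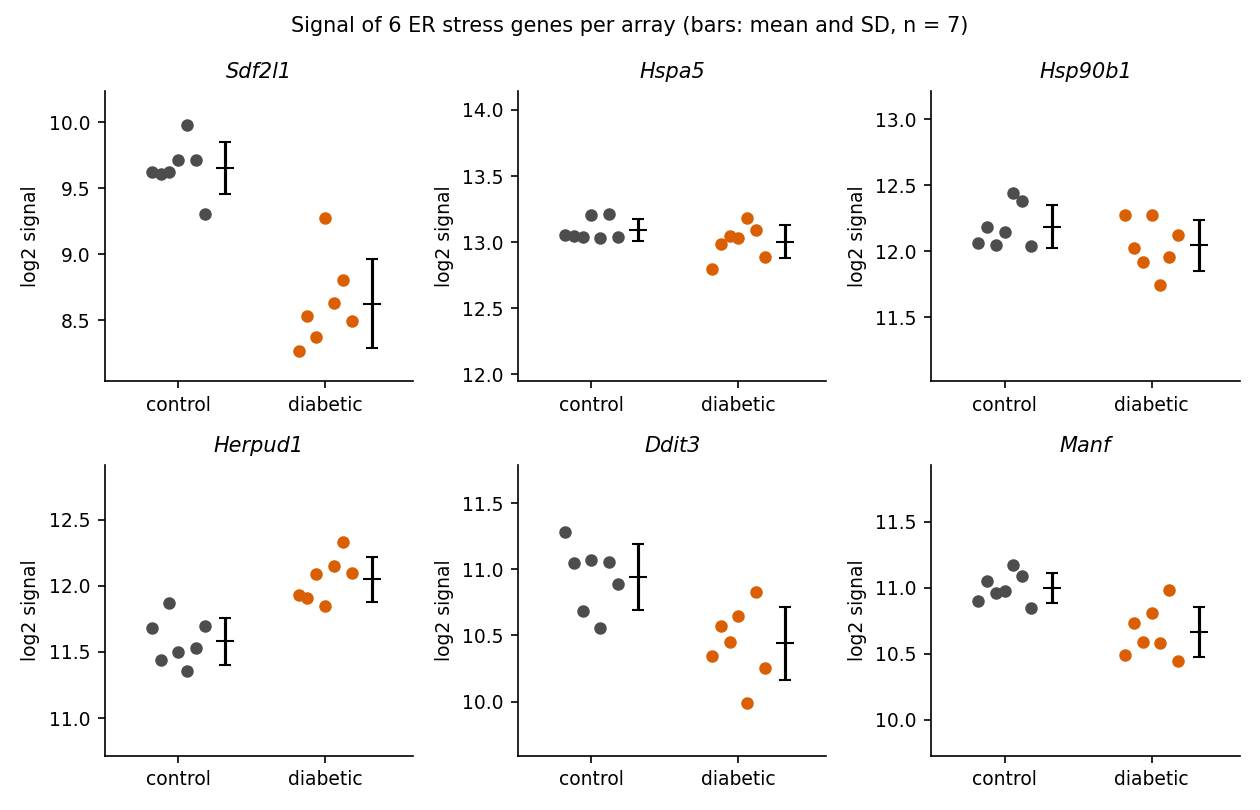
Log2 signal of Sdf2l1, Hspa5, Hsp90b1, Herpud1, Ddit3 and Manf in each of the 7 control and 7 diabetic hearts, with the mean and SD of each group as a bar. The groups separate for Sdf2l1 (controls from 9.31 up, diabetic up to 9.28) and overlap in the other 5 panels, by 1 heart from each group for Herpud1.

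The 4 ER disulfide isomerases, which make and rearrange disulfide bonds, had 0 calls and 1 gene at an unadjusted p under 0.05. That gene was P4hb, the founding member of the family and a subunit of prolyl 4-hydroxylase. P4hb was at 12.51, 12.67 and 12.75 in control and at 12.06, 12.38 and 12.63 in diabetic hearts. All 7 diabetic values lay below the control median and 4 below all controls, with a difference of -0.25 ± 0.11 (SE, limma adjusted p = 0.490). Pdia4 was at 9.29, 9.47 and 9.73 in control and at 9.05, 9.26 and 9.69 in diabetic hearts, a difference of -0.16 ± 0.12. Pdia6 gave -0.13 ± 0.10 and Pdia3, the partner of Calr and Canx, 0.01 ± 0.12 (SE).

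The 6 measured sensors and transcription factors of ER stress had 0 calls, 2 differences above 0 and 4 below, with a median of -0.05. Ddit3, the stress-induced factor CHOP, had the lowest value of these. It was at 10.56, 11.04 and 11.28 in control and at 9.99, 10.45 and 10.83 in diabetic hearts. All 7 diabetic hearts lay below the control median, and 4 below every control. The difference was -0.50 ± 0.15 (SE), a 1.41-fold lower value (1.14 to 1.76), with limma adjusted p = 0.162 (0.0809 with set as a block). It was -0.62, -0.46 and -0.44 within sets A, B and C.

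Eif2ak3, the sensor PERK, had values on the other side of 0. It was at 8.05, 8.20 and 8.64 in control and at 8.22, 8.50 and 8.81 in diabetic hearts, all 7 of which were above the control median. The difference was 0.24 ± 0.13 (SE, limma adjusted p = 0.594). The transcription factors themselves were nearly level, with Xbp1 at -0.09 ± 0.10, Atf4 at -0.01 ± 0.12 and Atf6 at 0.01 ± 0.20 (SE). The array does not show splicing of Xbp1, cleavage of Atf6 or translation of Atf4, the steps by which these factors are activated. Trib3, a pseudokinase induced by Atf4 and Ddit3, had no settled direction, since its 3 probe sets gave -0.31, 0.22 and 0.24, each with an interval that includes 0.

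Among the 7 measured cytosolic genes 0 were called and 1, Hsph1, reached an unadjusted p under 0.05. Hsph1 (HSP105/110) is a nucleotide exchange factor of HSP70 and a well-known heat shock gene. Its brighter probe set was at 10.66, 11.14 and 11.29 in control and at 10.53, 10.82 and 11.04 in diabetic hearts, a difference of -0.27 ± 0.12 (SE, limma adjusted p = 0.484). All 7 diabetic hearts lay below the control median on this probe set. The other Hsph1 probe set gave a difference of the same sign, -0.40 ± 0.13 (SE, limma adjusted p = 0.221), with 4 diabetic hearts below all controls. Hsf1, the heat shock factor, was at -0.01 ± 0.12 and Hsp90ab1, the constitutive cytosolic HSP90, at -0.01 ± 0.13 (SE). The other Hsp90ab1 probe set gave 0.14 ± 0.23. The HSP40 proteins Dnajb1 and Dnaja1 were at -0.12 ± 0.15 and -0.07 ± 0.15, and Bag3, which links HSP70 to small heat shock proteins and to autophagy, at -0.08 ± 0.14.

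The 3 mitochondrial chaperones each had a difference below 0 and were not called, with Hspe1 and Hspa9 at an unadjusted p under 0.05 with array set as a block. Hspe1 (HSP10), the lid of the HSP60 chamber, was at 13.14, 13.28 and 13.49 in control and at 12.91, 13.09 and 13.39 in diabetic hearts. Of the diabetic hearts 5 lay below all controls, and the difference was -0.21 ± 0.11 (SE, limma adjusted p = 0.578). Hspd1, the HSP60 that Hspe1 closes, was at -0.09 ± 0.09. Hspa9, the mitochondrial HSP70, was at 12.75, 12.97 and 13.12 in control and at 12.68, 12.77 and 13.00 in diabetic hearts, a difference of -0.19 ± 0.10 (SE, adjusted p = 0.584). A second bright Hspa9 probe set gave -0.18 ± 0.14, and dimmer ones gave -0.11 ± 0.24 and 0.00 ± 0.22.

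The 5 small heat shock proteins, which keep unfolding proteins from aggregating, had 0 calls and 0 genes at an unadjusted p under 0.05, and 2, Hspb1 and Hspb8, at an unadjusted p under 0.05 with array set as a block. Cryab, the alpha B-crystallin of Z-discs and intermediate filaments, was at 14.96, 15.03 and 15.09 in control and at 14.98, 15.03 and 15.07 in diabetic hearts. Its interval, 0.885 to 1.13 on the fold scale, was the narrowest of the members. Cryab was also the brightest member, where quantile normalisation leaves little spread and repeats values (15.0333 in control 2, control 7 and diabetic 3). The narrow interval is therefore limited as a measure of precision. Hspb8, which acts with Bag3, was at 12.59, 12.86 and 13.06 in control and at 12.46, 12.61 and 12.86 in diabetic hearts, all 7 below the control median. Its difference was -0.21 ± 0.11 (SE, limma adjusted p = 0.588), and a dimmer Hspb8 probe set gave -0.32 ± 0.19. Hspb1, Hspb6 and Hspb7 gave -0.25 ± 0.23, -0.09 ± 0.12 and -0.15 ± 0.15.

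Several heat shock genes differed between the array sets. Of the 52 member probe sets 10 (19.2%) differed between sets in a limma F test with group in the model, compared with 8.71% of all probe sets, a test added after seeing the data. They belonged to 7 genes: Hspa4, Hspb1, Hspb6, Hspb7, Hspb8, Hsp90ab1 and Dnaja1. Hspa4, an HSP110-type partner of HSP70, lay between 9.68 and 9.92 in set A, at 9.62 or lower in set B and between 10.72 and 10.88 in set C (adjusted p of the F test 9.78e-05). The groups overlapped within sets B and C, and in set A the diabetic hearts (9.82 to 9.92) lay just above the controls (9.68 to 9.79). The Hspa4 group difference of 0.01 ± 0.35 (SE) therefore carried the widest interval among the 36 genes, a fold of 0.597 to 1.69. What sets the arrays apart was not tested.

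Separation of the groups within sets was looked at after these values were seen, and its share of all named genes is given beside each count. Every diabetic heart lay below every control of its set in sets A, B and C for 2 of 36 members, Sdf2l1 and Hspb7 (5.56%, against 2.89% of named genes). In sets A and B this held for 7 members (19.4%, against 8.43%): Sdf2l1, Canx, Dnajb9, Ddit3, Hspb1, Hspb7 and Hspb8. These counts are descriptions. Hspb1 (HSP27) lay between 11.82 and 12.17 in set A and at 12.71 or higher in sets B and C. In set A its diabetic values were 11.82 to 11.96 and its controls 12.16 to 12.17, and in set B 12.71 to 12.78 and 13.21 to 13.24. In set C the groups overlapped. Hspb7, a small heat shock protein of cardiac and skeletal muscle, was lower in every diabetic heart than in every control of the same set: 13.71 to 13.76 against 13.86 to 13.93 in A, 13.97 to 14.09 against 14.16 to 14.18 in B, and 14.28 to 14.39 against 14.42 to 14.55 in C. With set as a block the adjusted p was 0.238 for Hspb1 and 0.408 for Hspb7, so neither was called. The other Hspb7 probe set did not separate the groups in sets A and B.

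**Figure D3:**
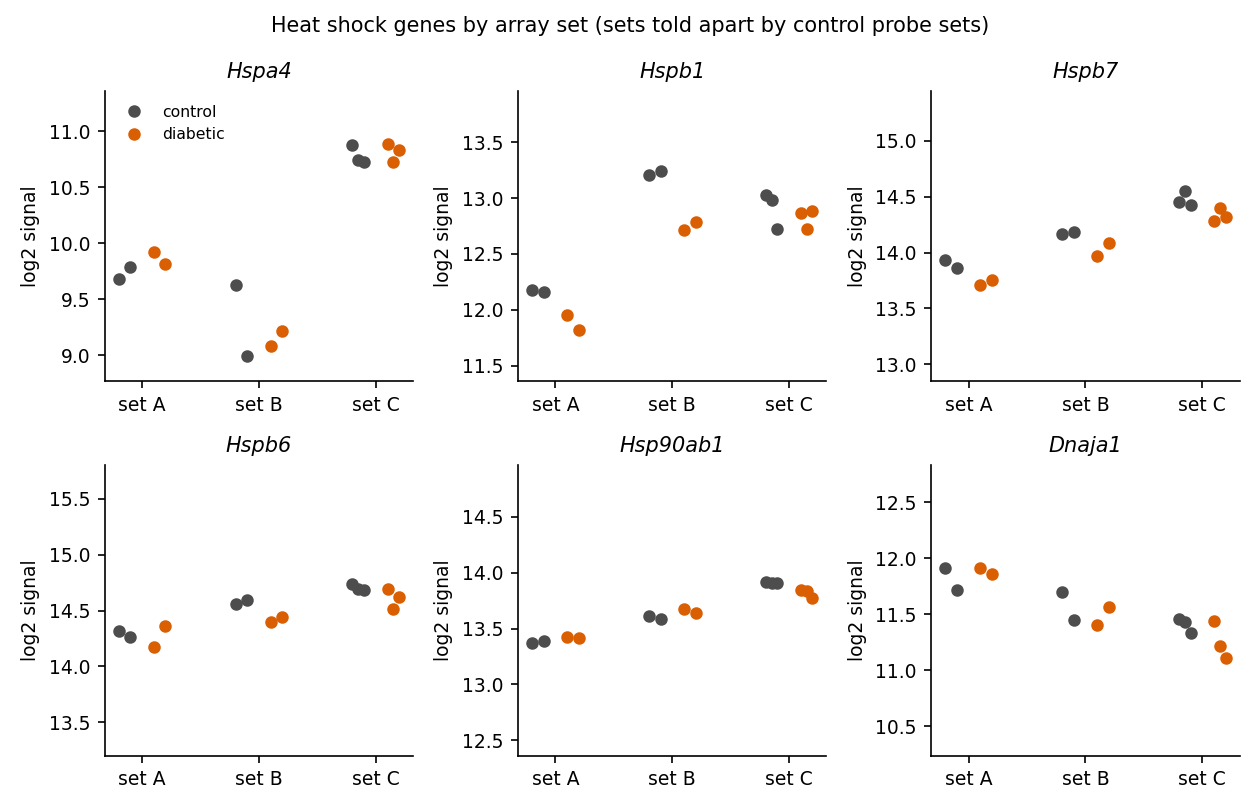
Log2 signal of Hspa4, Hspb1, Hspb7, Hspb6, Hsp90ab1 and Dnaja1 in each heart, by array set (A, B and C) and group, with control hearts in grey and diabetic hearts in orange. Hspa4 lies between 10.72 and 10.88 in set C and at 9.92 or lower in the other sets, while control and diabetic hearts stay close within a set.

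Members were also compared in pairs, as the log2 signal of one gene minus that of another within each heart, for relatives in different compartments, for 2 small heat shock proteins and for Hspa5 with Sdf2l1, which are both ER proteins. Of 7 pairs chosen 4 could be computed, since the rest need Hspa8 or Hsp90aa1. For Hspa5 against Sdf2l1, the log2 signal of the one minus that of the other, which depends on the probes and is read only as a change between groups, was 3.44 ± 0.20 in control and 4.38 ± 0.30 in diabetic hearts (SD, n = 7). The change was 0.94 ± 0.14 (SE). This pair was chosen with the fall of Sdf2l1 known, so the change restates that fall beside the value of Hspa5 and is given as a description, with no test.

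For the other 3 pairs the shift between groups was tested by exact two-sided permutation. Hspa5 against Hspa9, the ER and mitochondrial HSP70, shifted by 0.11 ± 0.11 (SE, exact permutation p = 0.329). Hsp90b1 against Hsp90ab1, the ER and cytosolic HSP90, shifted by -0.13 ± 0.12 (SE, exact permutation p = 0.293). Hspb1 against Cryab shifted by -0.25 ± 0.24 (SE, exact permutation p = 0.321). Adjusted over the 4 pairs computed, p was 0.329 for each of these 3, and a value that misses the threshold does not show that the genes respond alike.

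Animals of the same group also varied, and 7 pairs of members known to share a regulator or a complex were compared across the 14 hearts as deviations from their group means. The highest correlation was that of Pdia4 with Hsp90b1 (Pearson r = 0.49, permutation p = 0.0972, Spearman rho = 0.56, permutation p = 0.0497). Without the 2 hearts farthest from the median of Pdia4 it was 0.68, and as deviations from group by set means 0.70. Hspa5 and Hsp90b1 gave r = -0.40 and rho = -0.32 (permutation p = 0.194 and 0.277). That value rests on 2 hearts, since r was 0.06 without them. Hspa5 and Sdf2l1 gave r = 0.37 and rho = 0.48 (permutation p = 0.262 and 0.101). Hspd1 and Hspe1, the chamber and lid that share a promoter, gave r = 0.10 and rho = 0.0022, and r was 0.50 without quantile normalisation. The remaining 3 pairs, Hsph1 with Dnaja1, Hspb1 with Cryab and Ddit3 with Trib3, had r of 0.18, 0.06 and 0.08. Adjusted over the 7 pairs, p was between 0.610 and 0.857.

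Genes that work alongside the members were read from 5 pathway lists. Of 102 listed genes 98 were measured, of which 0 were called higher and 1 lower, with 16 at an unadjusted p under 0.05. Of all named genes 1.72% were called and 11.5% had an unadjusted p under 0.05, and the counts per list below are read beside these shares. The called gene was Hspa4l, an HSP110-type chaperone related to Hspa4 and Hsph1. It was at 9.66, 9.88 and 10.20 in control and at 8.87, 9.26 and 9.39 in diabetic hearts, which did not overlap. The difference was -0.69 ± 0.12 (SE, limma adjusted p = 0.00703). With set as a block 1 gene was called higher and 4 lower, which is 5 of 98 beside 3.09% of all named genes.

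In the list of the unfolded protein response and ER-associated degradation 27 of 30 genes were measured, 0 were called, 1 had an unadjusted p under 0.05, and the median difference was 0.03. Selenos, a selenoprotein of the ER degradation channel, was the lowest. It was at 10.47, 10.80 and 11.05 in control and at 9.77, 10.23 and 10.51 in diabetic hearts, a difference of -0.57 ± 0.13 (SE, limma adjusted p = 0.0516, and 0.0147 with set as a block). The isomerase Txndc5, the lectin Edem1 and the oxidase Ero1a gave 0.17, 0.22 and 0.13. In the list of Atf4 and the integrated stress response, which Eif2ak3 and its relatives start, 0 of 19 were called, 5 had an unadjusted p under 0.05, and the median was 0.02. Its members went both ways: Slc3a2, an amino acid transporter subunit, was at 0.37 ± 0.12, Asns, asparagine synthetase, at 0.43 ± 0.18, Cebpg at 0.29 ± 0.13 and Vldlr, the very low density lipoprotein receptor, at -0.48 ± 0.16 (SE).

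Of 32 measured cytosolic heat shock genes and co-chaperones 1 was called, Hspa4l, with 7 at an unadjusted p under 0.05 and a median of -0.0021. Chordc1, a zinc-binding partner of HSP90, was at -0.50 ± 0.14 (SE, limma adjusted p = 0.114, and 0.0332 with set as a block). Fkbp4, an immunophilin partner of HSP90 named after its values were seen, was at -0.53 ± 0.21 (adjusted p = 0.381, and 0.0223 with set as a block). Dnajb4, an HSP40, was at 0.45 ± 0.13 and Dnajb2 at -0.39 ± 0.15, neither called. The cytosolic chaperonin TRiC had 0 of 8 called and 0 at an unadjusted p under 0.05, with a median of 0.02, and Cct2 at 0.18 ± 0.11 was its highest value.

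In the mitochondrial unfolded protein response 0 of 12 genes were called, 3 had an unadjusted p under 0.05 and the median was 0.04. Clpx, the unfoldase of the matrix protease ClpXP, was at 12.00, 12.38 and 12.45 in control and at 12.61, 12.67 and 13.03 in diabetic hearts. Its groups did not overlap, and the difference was 0.45 ± 0.11 (SE, limma adjusted p = 0.0704, and 0.0206 with set as a block). Atf5, a transcription factor of this response, was at 0.44 ± 0.17, Dnaja3 at -0.26 ± 0.12 and the protease gene Spg7 at -0.27 ± 0.16, not called.

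**Figure D4:**
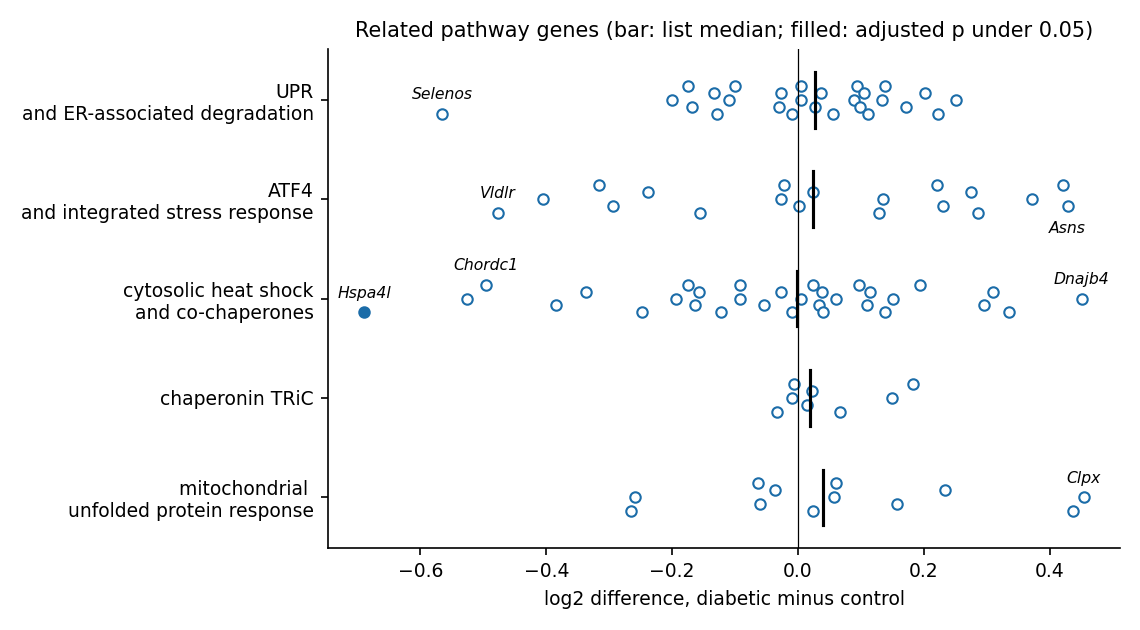
Log2 difference (diabetic minus control) of the 98 measured genes of 5 related pathway lists, each point a gene by its brightest probe set and each bar the median of its list. The list medians lie between -0.0021 and 0.04, and the filled point, Hspa4l at -0.69, is the gene that passed the adjusted threshold.

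The label of left ventricle was set against marker genes of heart cell types. Cardiomyocyte markers were bright, with a mean log2 signal over 4 genes of 14.930 to 15.036 in control and 14.825 to 14.926 in diabetic hearts. These ranges did not overlap. All 4 markers had differences below 0 (median -0.06), and 0 were called. Myh6 had the largest, -0.23 ± 0.09 (SE, limma adjusted p = 0.363), with groups that did not overlap. Tnni3, Tnnt2 and Myl2 were at -0.10, -0.03 and -0.01, with groups that overlapped. These markers lie near the level of Cryab, where quantile normalisation leaves little spread. Of 41 measured markers in 9 lists 1 was called, the red cell marker Slc4a1 (band 3), which was lower at -1.22 ± 0.18 (SE, limma adjusted p = 0.00174). The other 3 red cell genes were not called, with Hbb at 0.69 ± 0.43, Alas2 at 0.56 ± 0.30 and Ahsp at 0.11 ± 0.28, and the mean over the 4 red cell genes was 8.15 to 9.01 in control and 7.74 to 9.21 in diabetic hearts. All 5 macrophage markers had differences above 0 (median 0.30, Cd163 at 0.71 ± 0.23 and Cd68 at 0.59 ± 0.23), with 0 called and group ranges of their mean from 8.91 to 9.68 in control and 9.34 to 10.16 in diabetic hearts. All 4 atrial markers had differences above 0 (median 1.03), with 0 called and ranges of 9.36 to 13.04 and 9.80 to 13.21. The fibroblast, endothelial, smooth muscle and adipocyte lists had 0 calls. With set as a block the endothelial marker Vwf was called higher (0.57 ± 0.23, SE, limma adjusted p = 0.0403, and 0.385 without the block). The adipocyte mean, 6.09 to 6.85 in control and 6.43 to 6.71 in diabetic hearts, lay near the floor of 5.64 that the offset sets. The 6 immediate early genes, which respond to handling of tissue, had 0 calls and a median of -0.05. The part of these markers in the values of Sdf2l1 and the other members was not tested.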

How the data were processed

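RNA of the left ventricle from 7 control and 7 diabetic rats was measured (5 µg of total RNA per array, extracted with either of 2 kits, which the labels do not assign to animals). The deposited table gives a linear probe set intensity per array. The submitters' processing notes list MAS5, RMA, affy and limma with no role or version. Replicates are separate animals per the labels' titles.

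Signals were scaled per array to a trimmed mean of 500 (2% off each end), offset by 50, converted to log2 and quantile normalised. These log2 values come from the deposited intensities, and the 57 control probe sets were left out afterwards. Group differences were fitted by lmFit and eBayes of limma 3.58.1, two-sided, under R 4.3.3, over all 31042 probe sets, with Benjamini-Hochberg adjustment and a threshold of 0.05. Symbols came from the array's platform annotation, where 20826 probe sets had exactly 1. Array sets were told apart by the poly-A spike-ins and the beta-actin 3' to 5' ratio. Pair differences used exact permutation of the 3432 assignments, and correlations 100000 resamples within groups.

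The members, the pathway and marker lists and the tests were chosen with earlier results of these data known. Values were given for called members and those with the smallest p, 14 in all, and for the called genes and up to 4 with the smallest p of each pathway list. Outside this rule, Hspa5, Hsp90b1 and Cryab were also given in full and Hspa4, Hspb1 and Hspb7 by array set. Other members are given in brief. Alternatives were other offsets, scalings, variance priors, blocks, covariates, filters, a rank-sum test and arrays left out. Only the limma fit was tried on simulated log2 values, which had independent noise and no array sets. The other steps were not tried on simulated data. Detection calls were not used, so signal over background was not judged for single probe sets.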

Additional observations from a re-analysis of the deposited data

Results flagged for a closer look

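The array of diabetic replicate 5 stood apart for Pdia3, the disulfide isomerase that works with Calr and Canx. Its log2 signal of 12.34 was the highest of the 7 diabetic hearts, with the next at 11.92, and the gap was 0.63 of the group's range, above Dixon's 95% critical value for 7 samples. This was 1 of 104 groups of member values tested, and chance alone gives such a value in about 1 of 20 groups. The other Pdia3 probe set was at 8.57 in the same heart.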

How the results depend on the processing

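Sdf2l1 stayed called under every alternative that used all arrays, all but 1 or all but 3. The log2 difference ran from -1.09 with an offset of 16 to -0.80 with an offset of 200, and from -1.13 to -0.96 with single arrays left out. The exact rank-sum test gave an adjusted p of 0.0486. Over the array 354 probe sets were called, and 566 with an offset of 200, 543 with a trended robust prior, 645 with array set as a block, 558 with dim probe sets left out and 190 without the 3 dimmest arrays. Leaving out single arrays gave 261 to 332. Member genes and member probe sets called were 2 each with the offset of 200, the trended prior, the set block and the dim filter (Sdf2l1 and Herpud1, whose adjusted p was 0.0118, 0.00774, 0.0438 and 0.0182) and 1 each with any single array left out. Members with differences below 0 numbered 27 to 33 of 36 with single arrays left out.

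Replicate number as a block left 143 probe sets called, with Sdf2l1 still called (limma adjusted p = 0.0144). Arrays that share a number correlated by -0.161 to 0.0865 after removal of group means. Only number 5 had both arrays in the same array set, so these correlations cannot show whether the numbers pair the samples.

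Fitted within array sets A, B and C alone, limma gave 0 called probe sets and 0 called members each, with 2389, 3203 and 2431 probe sets and 2, 5 and 2 member genes at an unadjusted p under 0.05. The number of arrays was then 4, 4 and 6. The Hspa5 to Sdf2l1 shift was 0.90, 0.95 and 0.95 within them and 0.87 to 1.04 with single arrays left out. The 3 uncalled pair shifts moved more with single arrays left out, Hspb1 to Cryab from -0.36 to -0.13, Hsp90b1 to Hsp90ab1 from -0.19 to -0.06 and Hspa5 to Hspa9 from 0.07 to 0.17. Of the pair shifts, that of Hspa5 to Hspa9 changed sign within set B (-0.0061). Of the Pearson correlations, that of Ddit3 with Trib3 changed sign under trimmed-mean scaling alone (r = -0.025). That of Hsph1 with Dnaja1 did so as deviations from group by set means (r = -0.045), and that of Hspa5 with Hsp90b1 without the 2 farthest hearts (r = 0.060). Differences of some uncalled members also changed sign within sets. Xbp1 and Calr, for example, were at 0.09 and 0.07 within set B, against -0.09 and -0.07 over all arrays. The cause was not tested. Low signal limits the dim probe sets, such as those of Trib3.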
